A study of Mus musculus with 2 samples.

Results

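Mgl2 Cd209a antigen-presenting myeloid cells were 148 of 10437 kept mouse cells in single-cell RNA libraries of muscle and lung, 61 of 2243 cells in muscle and 87 of 8194 in lung. They were chosen by unique molecular identifier (UMI) counts per cell. A member held at least 2 counts of the lectins Cd209a and Mgl2 together and at least 5 of the MHC class II chain H2-Aa. It held no Xcr1 or Clec9a (type 1 dendritic cells), no Fscn1 (migratory dendritic cells) and no Cd79a or Cd3e (B and T cells), fewer than 3 counts of Mmp12 and fewer than 10 of C1qa, C1qb and C1qc together. Muscle members were further divided into Lyz1-high cells (at least 5 counts of the lysozyme Lyz1, 14 cells), Lyz1-zero cells (41 cells) and 6 cells between. The muscle library came from gastrocnemius, a calf muscle, and the lung library from whole lung. Both held CD45+ cells, taken with magnetic beads from digested tissue of mice titled TB mice, with the genotype given as CAC mouse model. The labels give no treatment, age, or number of mice, and the meaning of these short names was not assumed. There was 1 library per tissue, so no difference between the tissues could be tested, and cells of a library are not replicates.

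Cells that bear the C-type lectins CD209a and MGL2 with much MHC class II lie between several textbook types. Type 2 conventional dendritic cells need the growth factor receptor FLT3, take up antigen in the tissue and show its peptides on MHC class II to CD4 T cells. Monocyte-derived and interstitial macrophages can carry the same lectins, together with scavenger receptors such as CD163 and with the coagulation subunit encoded by F13a1. Lysozymes cut bacterial cell walls and are made by macrophages, and RELM-alpha, the product of Retnla, is a secreted protein that interleukin-4 induces in macrophages.

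The sequences of 4 genes are shown because the results turn on them. Lyz1 divides the muscle members and has a near copy, Lyz2. Over the coding sequence of 447 bases the copies shared 425 bases (95.1%), and the longest identical run was 118 bases. Of the 22 bases that differ 11 lie in the first 120. How reads of shared stretches were assigned is not given in the sources used here, and Lyz1 counts in cells rich in Lyz2 are uncertain to that extent. Bases 1 to 120 of each coding sequence are given 5′ to 3′ from the GENCODE vM21 transcripts (GRCm38, chromosome 10, minus strand), with the differing bases in capitals.
Lyz1: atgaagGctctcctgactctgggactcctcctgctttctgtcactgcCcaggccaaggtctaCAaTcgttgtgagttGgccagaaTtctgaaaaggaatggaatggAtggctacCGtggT
Lyz2: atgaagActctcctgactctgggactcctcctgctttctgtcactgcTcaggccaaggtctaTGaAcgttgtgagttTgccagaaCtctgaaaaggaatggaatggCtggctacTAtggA
The 100 bases before the start of each gene (RefSeq, GRCm38.p6, minus strand) were also alike, with 92 bases in common and the 8 that differ in capitals. Lyz1 lies at chr10:117292869-117292968 and Lyz2 at chr10:117282273-117282372.
Lyz1 promoter: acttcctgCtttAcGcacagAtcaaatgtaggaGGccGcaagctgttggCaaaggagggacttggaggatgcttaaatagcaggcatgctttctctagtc
Lyz2 promoter: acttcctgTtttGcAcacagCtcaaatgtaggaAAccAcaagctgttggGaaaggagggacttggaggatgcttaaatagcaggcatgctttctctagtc
Retnla and the chemokine gene Ccl17 are both known as interleukin-4 response genes and stood on opposite sides in the comparisons. Each holds 1 match of TTC followed, after any 4 bases, by GAA, which reads the same on both strands, in the 250 bases before its start, shown in capitals. This is the spacing known to be bound by STAT6, the factor that interleukin-4 activates. Of 32851 RefSeq promoters of this length 1923 (5.85%) hold the motif, and a match is a description of letters, not of binding. The Retnla window is chr16:48842359-48842608 and the Ccl17 window chr8:94810203-94810452, both on the plus strand of GRCm38.p6.
Retnla promoter: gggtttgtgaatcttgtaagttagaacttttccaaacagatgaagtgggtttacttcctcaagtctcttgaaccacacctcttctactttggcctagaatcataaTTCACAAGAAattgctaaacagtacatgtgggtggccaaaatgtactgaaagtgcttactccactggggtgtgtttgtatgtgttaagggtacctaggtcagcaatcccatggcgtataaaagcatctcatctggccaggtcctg
Ccl17 promoter: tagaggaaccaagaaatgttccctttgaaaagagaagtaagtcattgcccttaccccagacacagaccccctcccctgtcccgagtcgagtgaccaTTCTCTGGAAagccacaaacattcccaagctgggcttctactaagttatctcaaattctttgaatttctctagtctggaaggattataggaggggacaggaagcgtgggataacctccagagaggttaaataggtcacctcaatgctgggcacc

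The libraries differed in depth and in the share of mitochondrial UMIs. The muscle library held 5547 barcodes and 14056163 UMIs, and the lung library 8481 barcodes and 34751225 UMIs. The limit of 10% mitochondrial UMIs removed 59.5% of muscle barcodes and 3.22% of lung barcodes, and 1 muscle barcode that was removed met all other criteria. Members held a median of 9606 UMIs in muscle (1237 to 19943) and 7236 in lung (962 to 21293), against library medians of 3106 and 2286 UMIs in kept cells. Mitochondrial genes took 2.99% of member UMIs in muscle and 1.52% in lung. Barcodes found in both libraries numbered 64, 1 of them a muscle member, and 6 lung members and no muscle member were scored as likely doublets and retained. Levels below are counts per 1000000 counts (CPM), from the summed counts of a set of cells, ranges in brackets are exact 95% intervals, and these hold counting error only.

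The label was compared with its 6 markers. Ptprc, which encodes CD45, stood at 463 CPM in muscle members and 459 CPM in lung members. Members made up 55 of 296 kept muscle cells with a Ptprc count (18.6%, 14.3 to 23.5) and 64 of 4661 in lung (1.37%, 1.06 to 1.75), so most kept muscle cells had no Ptprc count although both libraries were of CD45+ cells. Cd209a stood at 649 CPM in muscle members and 423 CPM in lung members, and Mgl2 at 1165 and 641 CPM, as the rule requires of their sum. Of the markers that the rule did not use to find members, the lectin Cd209d was read in 36 of 61 muscle and 12 of 87 lung members. Lyz1 was read in 20 muscle members and 1 lung member, Retnla in 35 and 1, and Fcrls, an Fc receptor-like gene, in 43 and 2. Cd209d, Retnla and Fcrls were thus read in most muscle members and Lyz1 in a minority of them. Lung members met the rule with Lyz1, Retnla and Fcrls near 0.

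The borders of the rule lay close to many cells in lung and to fewer in muscle. The lectin sum had a median of 16 counts in muscle members and 4 in lung members. It was exactly 2 in 9 muscle and 25 lung members, and 12 muscle and 59 lung cells that met everything else had 1 count. H2-Aa ran from 9 to 342 counts in muscle members (median 83) and from 5 to 203 in lung members (median 31). The C1q sum was 0 in 42 muscle and 54 lung members, and 34 muscle and 42 lung cells failed on C1q alone.

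Lyz1 and Retnla divided the muscle members into cells with very much of these RNAs and cells with little or none. Lyz1 ran from 19 to 282 counts with a median of 43 in the 14 Lyz1-high members, from 1 to 3 counts in the 6 cells between, and was 0 in the 41 Lyz1-zero members. Since Lyz1 chose these sets its level is a description, and no muscle member lay between 3 and 19 counts. Retnla, which the rule did not use, ran from 0 to 910 counts with a median of 398 in Lyz1-high members and from 0 to 172 with a median of 0 in Lyz1-zero members. It was read in 13 of 14 Lyz1-high and 17 of 41 Lyz1-zero cells, so the ranges overlapped. Pooled Retnla stood at 33423 CPM (32516 to 34349) in Lyz1-high and 1860 CPM (1719 to 2009) in Lyz1-zero members, a log2 ratio of 4.17 (4.05 to 4.29). In muscle endothelial cells, which should lack it, Retnla stood at 45.8 CPM and was read in 14.9% of 999 cells at a median of 3176 UMIs, against a median of 11107 UMIs in Lyz1-high and 8231 in Lyz1-zero members.

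**Figure D1:**
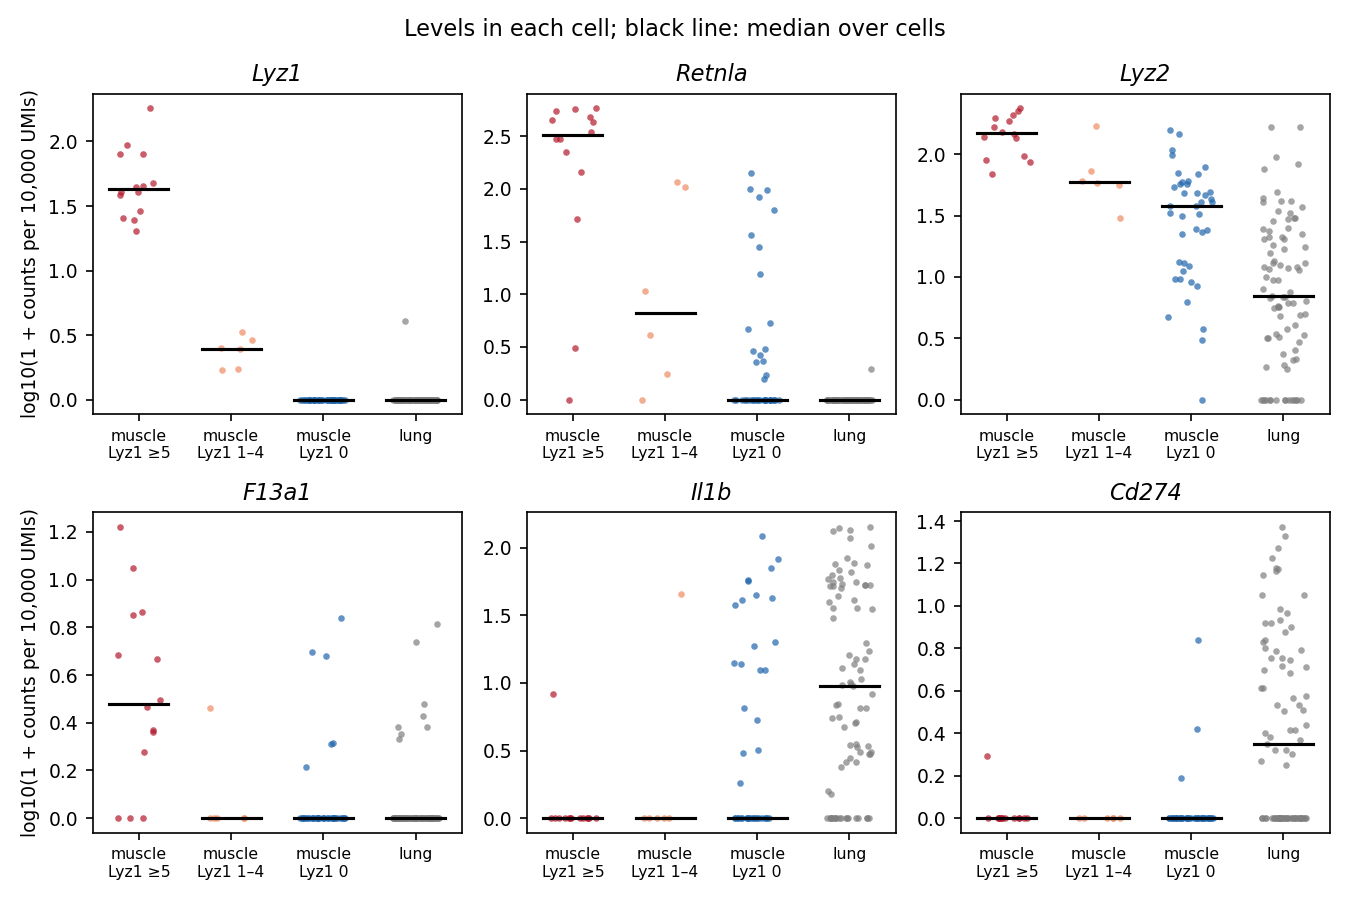
Each point is 1 cell, plotted as log10 of 1 plus counts per 10,000 UMIs of Lyz1, Retnla, Lyz2, F13a1, Il1b and Cd274, for muscle members with at least 5, 1 to 4 and 0 counts of Lyz1 and for lung members, and the line marks the median. Retnla and Lyz2 lie high in Lyz1-high cells, Il1b was read in 1 of 14 of them, and Cd274 points lie above 0 mainly in lung (49 of 87 cells).

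The near copy Lyz2 was read in all 14 Lyz1-high members and 40 of 41 Lyz1-zero members. Its level per cell ran from 6747 to 23695 CPM (median 14727) in Lyz1-high and from 0 to 15795 CPM (median 3691) in Lyz1-zero cells. Pooled, it stood at 15088 and 4157 CPM, a log2 ratio of 1.86 (1.76 to 1.96), under the fold of 4 used below. The genes most like Lyz1 over the 61 muscle members were Lyz2 (Spearman rho 0.69), the CC chemokine gene Ccl6 (0.67), Retnla (0.66), the adhesion receptor gene Cd84 (0.65) and Lpl (0.64), among 1564 genes with at least 50 counts. The most negative values belonged to Mgl2 (−0.49), the lectin gene Cd209c (−0.46), Cd209a (−0.45), the receptor gene Klrb1b (−0.44) and H2-Eb1 (−0.44). The rule selected on Mgl2, Cd209a and class II, these cells shared a library, and Lyz1 itself had a rho of 0.30 with depth.

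Genes were called apart by size when their levels stood at least 4-fold apart, the interval of the ratio lay beyond 2-fold and 30 or more counts were read in the higher set. By this rule 19 of 1598 genes were higher in Lyz1-high than in Lyz1-zero members (1.19%) and 64 were lower (4.01%). The median log2 ratio over the 2260 genes with at least 10 counts in both sets was 0.23, against which the ratios below are to be read. The higher genes included genes of secreted and matrix proteins. Fn1, fibronectin, stood at 3266 CPM in Lyz1-high and 484 CPM in Lyz1-zero members, in 13 of 14 and 18 of 41 cells (log2 ratio 2.76, 2.50 to 3.02). Ecm1, extracellular matrix protein 1, stood at 922 and 222 CPM (2.06, 1.65 to 2.48), with every Lyz1-high cell positive. F13a1 stood at 357 and 31.7 CPM (3.50, 2.55 to 4.58). Thsd4, which encodes a microfibril-associated protein, had 30 counts in 9 Lyz1-high cells and none in Lyz1-zero cells, at least 22.6-fold higher against a floor of 3 counts. Mmp19, a matrix metalloproteinase, stood at 201 and 25.9 CPM (2.96, 1.85 to 4.21).

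Enzymes and receptors made up the other named genes on that side. Lpl, lipoprotein lipase, stood at 779 CPM in Lyz1-high and 69.1 CPM in Lyz1-zero members, in 12 of 14 and 8 of 41 cells (log2 ratio 3.50, 2.85 to 4.19). Muscle endothelial cells held Lpl at 1175 CPM in 69.2% of cells, while the Lyz1-zero members of the same library held the level just given. Cd84 stood at 273 and 28.8 CPM (3.24, 2.23 to 4.40), the signalling suppressor gene Socs6 at 273 and 46.1 CPM (2.57, 1.70 to 3.50) and the phospholipase gene Plcb1 at 201 and 11.5 CPM (4.13, 2.63 to 6.09). Single cells carried much of several calls. Of the counts in Lyz1-high members, 1 cell held 67.7% for Mmp19, 46.7% for Thsd4, 41.9% for Plcb1 and 31.0% for Socs6. None of these genes was still apart without its highest cell. Of the 131 counts of Mucl1 in Lyz1-high members 130 lay in 1 cell, and of the 198 counts of the monocyte-attracting chemokine gene Ccl2 192 lay in 1 cell. Without each gene's highest cell 10 of the 19 genes were still apart, namely Cd81, Cd84, Ctsd, Ecm1, F13a1, Fn1, Lpl, Lyz1, Retnla and Tmcc1, as were 47 of the 64 lower genes.

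The named genes lower in Lyz1-high members included chemokine, cytokine and signalling genes. Ccl17, which attracts T cells through CCR4, had no count in the 14 Lyz1-high cells and stood at 518 CPM in Lyz1-zero members, in 23 of 41 cells, at least 26.6-fold lower in Lyz1-high cells. Il1b, the inflammatory cytokine interleukin-1 beta, was read in 1 of 14 Lyz1-high and 20 of 41 Lyz1-zero cells, at 77.9 and 1557 CPM (log2 ratio −4.32, −5.28 to −3.50). Its decoy receptor gene Il1r2 was at 0 in Lyz1-high cells and at 236 CPM in Lyz1-zero cells, at least 12.1-fold lower. Cxcl16, the ligand of CXCR6, was at least 11.5-fold lower, the chemokine gene Ccl5 at least 9.16-fold lower with its 62 counts in 5 Lyz1-zero cells, and Klrb1b at least 10.1-fold lower. Signalling genes followed the same side, with Rel, an NF-kappaB subunit gene, at 32.5 and 515 CPM (−3.99, −5.63 to −2.74), Nr4a3, an inducible nuclear receptor gene, with 2 counts, against 443 CPM (−5.09, −8.15 to −3.22) and Socs3, a feedback inhibitor of cytokine receptors, with 2 counts, against 337 CPM (−4.70, −7.76 to −2.81). Cd209c stood at 19.5 and 368 CPM (−4.24, −6.54 to −2.66), and Wnt11, a Wnt ligand gene, and Basp1 each had 2 counts in Lyz1-high cells against 253 and 227 CPM in Lyz1-zero cells.

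**Figure D2:**
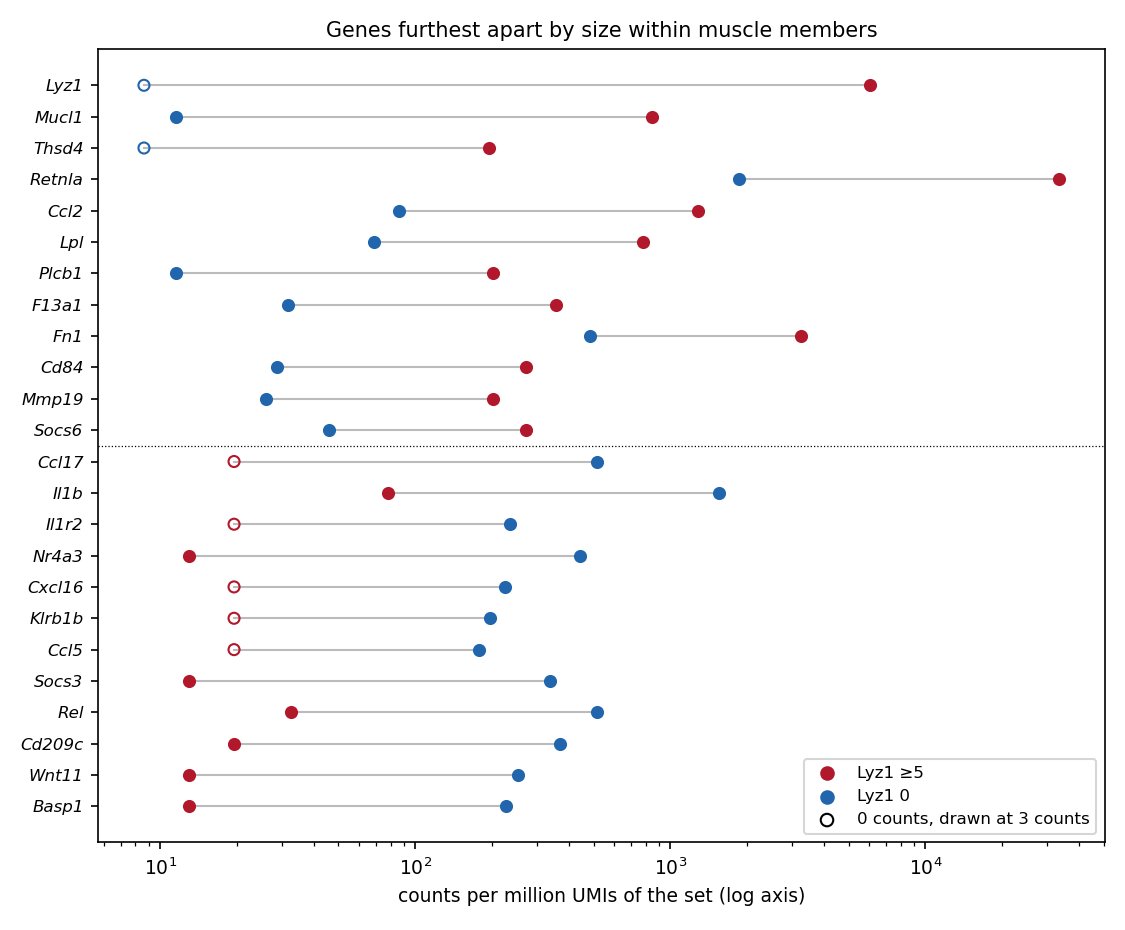
CPM on a log axis of the 12 genes in each direction named by the size rule, in Lyz1-high members (14 cells) and Lyz1-zero members (41 cells) of muscle, with hollow marks for sets without a count drawn at 3 counts. Lyz1 and Retnla reach 6090 and 33423 CPM in Lyz1-high members, while Ccl17 and Il1r2 had no count there.

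Antigen presentation genes were read in both muscle sets. The rule for members fixed a minimum of H2-Aa, which stood at 5700 CPM in Lyz1-high and 11984 CPM in Lyz1-zero members. Of the 12 listed genes of MHC class II presentation none was apart by size between the sets, the median log2 ratio of 9 measured was −0.63, and over all 5540 measured genes it was 0.06. H2-Eb1 stood at 3889 and 9198 CPM (−1.24, −1.37 to −1.12), and the invariant chain gene Cd74 at 21185 and 37383 CPM (−0.82, −0.88 to −0.76). H2-DMb1, which helps load peptides, stood at 941 and 832 CPM (0.18, −0.12 to 0.47). Of the costimulation and checkpoint ligands 2 of 4 with at least 30 counts were lower in Lyz1-high members, Cd86 at 58.4 and 311 CPM (−2.41, −3.58 to −1.43) and Tnfsf9, the ligand gene of 4-1BB, at 32.5 and 196 CPM (−2.59, −4.26 to −1.30). Among 20 immediate early and heat shock genes, which digestion of tissue is known to induce, 17 had a negative log2 ratio (median −0.97), and Fosb and Dnajb1 were apart by size. Whether that response had a part in the lower Il1b, Rel and Nr4a3 was not tested.

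Flt3 was rare in muscle members, and Cd163 or F13a1 common. Flt3 was read in 6 of 61 muscle members (9.84%, 3.70 to 20.2), all of them Lyz1-zero, and in none of the 14 Lyz1-high cells, which allows a share of up to 23.2%. In lung it was read in 8 of 87 members (9.20%), and in 5.22% of 689 lung B cells, at medians of 7236 and 2402 UMIs. By the same measure type 1 dendritic cells held Flt3 in 10 of 12 muscle and 45 of 62 lung cells. Cd163 or F13a1 was read in 39 of 61 muscle members (63.9%) and 11 of 87 lung members (12.6%). The muscle share was 13 of 14 in Lyz1-high cells and 22 of 41 in Lyz1-zero cells. This trait was not particular to members. C1q-high macrophages (C1q sum of 10 or more) held Cd163 or F13a1 in 65 of 75 muscle and 164 of 360 lung cells. Cells that met a gate for monocytes held them in 8 of 11 muscle and 104 of 171 lung cells. In muscle endothelial cells, at a median of 3176 UMIs, Flt3 was read in 0.1001%, Cd163 in 0.200% and F13a1 in 0.701%. Lung B cells held F13a1 in 4.06% and Cd163 in 0.581%. After each cell was thinned to 1000 UMIs, Cd163 or F13a1 was read in 18.0% of muscle members and 0.101% of muscle endothelial cells, and in 3.49% of lung members and 1.94% of lung B cells. Thinned Flt3 was read in 1.64% of muscle members and 3.49% of lung members, against 2.24% of lung B cells. Both thinned lung shares were 3 of 86 members (0.73 to 9.86), an interval too wide to place them against the B cells. Without likely doublets 569 of the 689 lung B cells and 81 lung members were left. At all UMIs these B cells held Cd163 or F13a1 in 2.64% and Flt3 in 5.10%, against 13.6% and 9.88% of these members, at unlike depth.

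Few muscle members held Flt3, and 3 of these 6 also held Cd163 or F13a1. In muscle 36 members held Cd163 or F13a1 without Flt3, 3 held Flt3 alone, 3 held both and 19 held neither. In Lyz1-high cells the numbers were 13, 0, 0 and 1, and in Lyz1-zero cells 19, 3, 3 and 16. In lung 70 of 87 members held none of the genes, so the score left most lung members at 0. The score, the natural log of Flt3 per 10000 UMIs (plus 1) minus the mean of the same for Cd163 and F13a1, had a median of −0.32 in muscle (−1.78 to 1.89), −0.76 in Lyz1-high cells and 0 in Lyz1-zero cells and in lung. Cd163 itself did not follow Lyz1, at 77.9 CPM in Lyz1-high and 115 CPM in Lyz1-zero members (log2 ratio −0.56, −1.63 to 0.40), whereas F13a1 did.

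**Figure D3:**
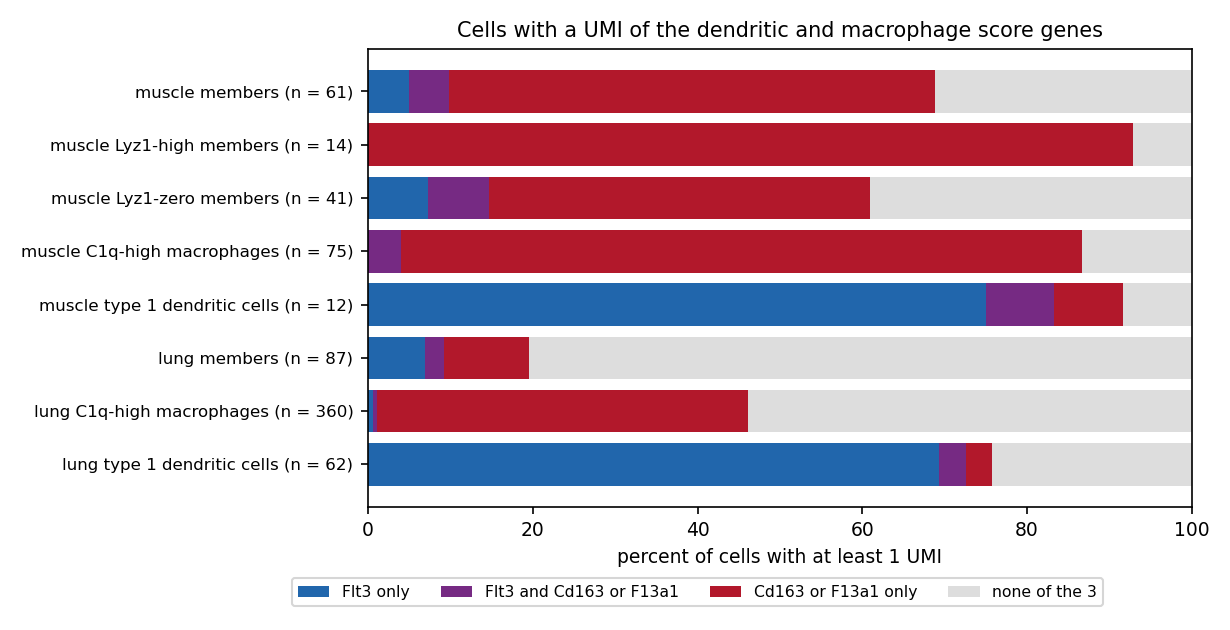
Stacked bars give the percent of cells with a UMI of Flt3 only, of both Flt3 and Cd163 or F13a1, of Cd163 or F13a1 only, and of none, for members, their Lyz1 sets, C1q-high macrophages and type 1 dendritic cells of each library. Cd163 or F13a1 was read in 13 of 14 Lyz1-high members, and Flt3 in 10 of 12 muscle type 1 dendritic cells.

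Lyz1 was not particular to cells that met the rule. Of 64 kept muscle cells with at least 5 Lyz1 counts 14 were members, 27 had a C1q sum of 10 or more, 20 had lower C1q with under 2 lectin counts, and 3 failed otherwise. The members among them held Retnla at 33423 CPM, the C1q-positive cells at 34877 CPM and the lectin-poor cells at 33130 CPM. Lyz2 stood at 15088, 14826 and 14626 CPM in the same order, Fcrls at 565, 543 and 407 CPM, and Ccr2, the receptor for CCL2, at 636, 502 and 414 CPM. Flt3 was read in 1 of the 64 cells. H2-Aa stood at 5700 CPM in the members, 5493 CPM in the C1q-positive and 4121 CPM in the lectin-poor cells. Of all Lyz1 counts in kept muscle cells members held 26.7%, and of Retnla counts 19.9%. In lung 7 kept cells had at least 5 Lyz1 counts, and none was a member.

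The lectins of the rule were unevenly paired. Of 61 muscle members 40 held both Cd209a and Mgl2, 19 held Mgl2 only and 2 held Cd209a only. Of 87 lung members 32 held both, 47 Mgl2 only and 8 Cd209a only. Among Lyz1-high cells 5 held both and 9 Mgl2 only, and among Lyz1-zero cells 30 held both, 9 Mgl2 only and 2 Cd209a only. Cd209a stood at 97.4 CPM in Lyz1-high and 875 CPM in Lyz1-zero members, and Mgl2 at 364 and 1405 CPM. The rule chose cells by these lectins and the sets by Lyz1, so these values and pairings are a description. Muscle members with both lectins held Retnla at 6216 CPM and members with Mgl2 only at 22587 CPM, while Cd209d stood at 457 and 50.1 CPM and H2-Aa at 11181 and 6823 CPM. Cd163 was read in 22 of 40 cells with both and 4 of 19 with Mgl2 only, and F13a1 in 5 of 40 and 12 of 19. Cd163 and F13a1 were read together in 6 muscle members. In lung, members with both lectins held Clec10a, a galactose-type lectin gene, at 751 CPM and members with Mgl2 only at 202 CPM.

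Between the tissues Retnla, Lyz1, Lyz2 and Fcrls were higher in muscle members, and Ccl17, Cd274 and Pdcd1lg2 were lower. By the size rule 70 of 3737 genes were higher in muscle than in lung members (1.87%) and 148 were lower (3.96%). The median log2 ratio over the 5517 genes with at least 10 counts in both sets was −0.15. Tissue, library and the share of barcodes lost to the mitochondrial limit cannot be told apart in this comparison. Retnla stood at 10462 CPM in muscle members, with 1 count in lung (log2 ratio 12.78, 10.30 to 18.08), and Lyz1 at 1633 CPM, with 2 counts in lung (9.10, 7.24 to 12.15). Muscle members also held more Lyz2, at 7619 CPM against 1556 CPM in lung members (2.29, 2.19 to 2.39), where lung B cells held 1127 CPM. Its level per cell had a median of 5349 CPM in muscle and 603 CPM in lung, and the ranges overlapped. Fcrls stood at 305 CPM in muscle, with 2 counts in lung (6.68, 4.80 to 9.73).

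Other genes of the muscle side were receptors, adhesion proteins and enzymes. Cd226, an activating receptor gene, was read in 30 of 61 muscle members and 1 of 87 lung members, at 119 and 2.98 CPM (log2 ratio 5.32, 3.41 to 8.39). Cd2, an adhesion receptor gene best known in T cells, was read in 26 muscle members and 1 lung member (6.02, 3.48 to 11.34). Upb1, an enzyme of pyrimidine breakdown, was at least 18.5-fold higher in muscle, with 48 counts in 22 cells and none in lung. Kcnq1, a potassium channel gene, was at least 19.6-fold higher, Negr1, an adhesion gene, at least 14.6-fold, and Slc27a3, of the fatty acid transport family, stood at 102 and 1.49 CPM (6.09, 3.56 to 11.42). Ecm1 was read in 40 muscle and 10 lung members, at 437 and 19.4 CPM (4.50, 3.70 to 5.43). Muscle endothelial cells held Kcnq1 at 50.5 CPM, Slc27a3 at 20.9 CPM, Ecm1 at 35.2 CPM, Cd226 at 0.53 CPM and no Cd2. Ttn, the giant protein of muscle fibres, was read in 54.1% of muscle members and 54.0% of muscle endothelial cells, so it was not particular to members. Whether it was background was not tested. Of the 96 counts of Frmd5 in muscle members 58 lay in 1 cell.

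**Figure D4:**
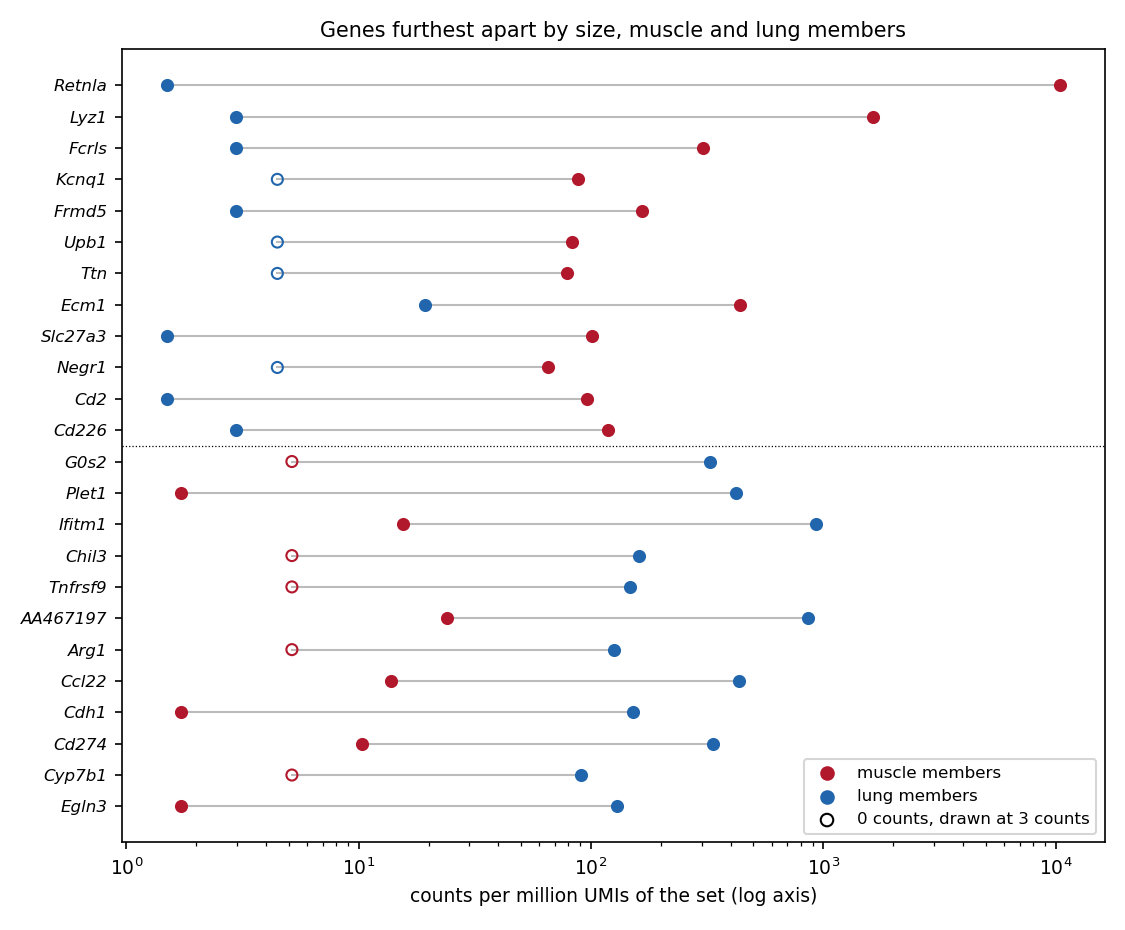
CPM on a log axis of the 12 genes in each direction named by the size rule, in muscle members (61 cells) and lung members (87 cells), with hollow marks for sets without a count drawn at 3 counts. Retnla stands at 10462 CPM in muscle members against 1.49 CPM in lung members, and Cd274 at 10.3 CPM against 337 CPM.

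Several genes of the lung side were also high in lung cells that should lack them, and were read against those cells. The neutrophil genes S100a9 and S100a8 stood at 437 and 276 CPM in lung members, below the 1402 and 1196 CPM of lung B cells. G0s2, an inhibitor of fat breakdown, stood at 325 CPM in lung members and 811 CPM in lung B cells, Chil3, the chitinase-like protein Ym1, at 161 and 248 CPM, and Arg1, arginase, at 125 and 208 CPM. Each of these 5 genes was called lower in muscle, and whether their counts in lung members are background was not tested. The B cell set held likely doublets itself, with 569 of its 689 cells left without them. The neutrophil markers together summed to 3.44 CPM in muscle and 803 CPM in lung members, and their part in the other lung values was not tested.

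Cd274, which encodes the checkpoint ligand PD-L1, was read in 4 of 61 muscle members and 49 of 87 lung members, with at most 2 counts per cell in muscle and 13 in lung, at 10.3 and 337 CPM (log2 ratio −5.03, −6.49 to −3.88). Lung B cells held it at 232 CPM, and after thinning it was read in 27.9% of lung members and 17.1% of lung B cells. In muscle 6.56% of members and 8.81% of endothelial cells held a count. B cells and endothelial cells can express Cd274 themselves, so how much of these values is background was not tested. The second PD-1 ligand gene, Pdcd1lg2, was at 5.16 CPM in muscle members and 124 CPM in lung members (−4.58, −6.89 to −2.98), with 43.4 CPM in lung B cells. Without the Lyz1-high cells the Cd274 ratio was of like size, with 14.4 CPM in Lyz1-zero members against the same lung cells (−4.55, −6.18 to −3.30).

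Other named genes that were lower in muscle members did not belong to 1 list, and the chemokine list as a whole is given below. Ccl17 was read in 27 muscle and 62 lung members, at 408 and 1979 CPM (log2 ratio −2.28, −2.48 to −2.08), with 190 CPM in lung B cells. Its partner Ccl22, the other CCR4 ligand, was read in 1 muscle and 13 lung members, and 201 of its 292 lung counts lay in 1 cell. Tnfrsf9, the costimulatory receptor 4-1BB, had no count in muscle and 148 CPM in lung members, at least 28.6-fold lower in muscle, against 26.7 CPM in lung B cells. Cdh1, E-cadherin, stood at 1.72 and 152 CPM (−6.46, −11.78 to −3.95), and Egln3, a prolyl hydroxylase of the oxygen response, at 1.72 and 130 CPM (−6.23, −11.55 to −3.72), close to the 120 CPM of lung B cells. Cyp7b1, an oxysterol hydroxylase, was at least 17.6-fold lower in muscle. Ifitm1, an interferon-induced membrane protein gene, was read in 5 muscle and 48 lung members, at 15.5 and 927 CPM (−5.90, −7.04 to −4.97), against 213 CPM in lung B cells, AA467197 stood at 24.1 and 861 CPM, and Plet1 at 1.72 and 423 CPM. Il1b, the cytokine low in Lyz1-high cells, stood at 1050 and 2394 CPM (−1.19, −1.33 to −1.05), under the fold of 4, with 1645 CPM in lung B cells.

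Over all 8343 measured genes the median log2 ratio of muscle over lung members was −0.21. Of 18 C-type lectin genes found 16 were measured, 4 were higher in muscle, 1 was lower, and the median was 0.64. Clec4b1 stood at 327 and 34.3 CPM in 49 and 17 cells (3.25, 2.63 to 3.95), Clec4a2 at 220 and 44.7 CPM, Clec4a1 at 63.7 and 10.4 CPM and Cd209d at 327 and 64.1 CPM, while Clec4n, which encodes dectin-2, stood at 55.1 and 343 CPM. Of 20 conventional dendritic genes 17 were measured, none was higher and 2 were lower in muscle, Kmo at 31.0 and 148 CPM and the growth factor receptor gene Kit at 5.16 and 49.2 CPM, with a list median of −0.87. The dendritic transcription factor genes Zbtb46 (36.1 and 37.3 CPM) and Irf4 (87.8 and 80.5 CPM) were close in level, with intervals that include no difference, and Irf8 stood at 20.7 and 99.8 CPM (−2.27, −3.30 to −1.37).

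Of 16 macrophage genes 15 were measured and Selenop, a selenium transport protein, was higher in muscle, at 143 and 25.3 CPM, with a median of 0.07 for the list. Csf1r, the receptor that macrophages need to survive, stood at 153 and 168 CPM. Of 18 genes of resident perivascular macrophages 9 were measured, and Cd163 (108 and 4.47 CPM, log2 ratio 4.60, 2.99 to 6.92) and F13a1 (115 and 22.4 CPM) were higher in muscle. The median of that list was 0.08, with 5 positive and 4 negative ratios. Of its 18 genes 7 had no count in muscle members, among them Lyve1 and Folr2, and 3 had none in lung members. Of 16 monocyte genes 6 were lower in muscle and none higher, with a median of −1.25, among them Plac8 at 25.8 and 381 CPM, while Ccr2 was read in 55 of 61 muscle and 41 of 87 lung members, at 549 and 207 CPM (1.41, 1.11 to 1.70). Ear2, a ribonuclease gene, stood at 1208 and 216 CPM.

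The list of 12 antigen presentation genes had 1 of 11 measured genes apart, H2-Oa, an inhibitor of peptide loading, lower in muscle at 15.5 and 71.5 CPM. Its summed level was 54147 CPM in muscle and 35689 CPM in lung members, and Cd74 stood at 32434 and 18236 CPM. Of 10 measured costimulation and checkpoint ligands Cd274 and Pdcd1lg2 were lower in muscle and none higher. Of 13 measured interleukin-4 response genes Retnla was higher in muscle and Arg1, Chil3, Ccl17, Ccl22 and Pdcd1lg2 were lower. The genes of that list thus did not share a direction, and Arg1 and Chil3 stood lower in lung members than in lung B cells. Among 16 measured chemokine genes Ccl4, Ccl5, Ccl7 and Cxcl10 were higher and Ccl17, Ccl22 and Cxcl9 lower in muscle, and 11 of 16 had a positive ratio (median 0.83). Ccl4 had 191 of its 459 muscle counts in 1 cell, Ccl7 49 of 58 and Cxcl10 30 of 59, and Cxcl9 had 37 of its 41 lung counts in 1 cell. Without each gene's highest cell none of these 4 was still apart. None of 11 cathepsins was apart. Of 10 measured interferon genes 4 had the 30 counts a call needs, and none of these was apart.

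The other lists had few genes apart, although some medians lay away from the −0.21 of all genes. These were −1.40 for cell cycle, −0.67 for secreted factors and 0.72 for cytokine genes, and 6 of 10 lipid-associated macrophage genes had a negative ratio. Between muscle and lung members, Tnf was higher and Osm lower in muscle among 10 measured cytokine genes, at 65.4 and 10.4 CPM and at 32.7 and 256 CPM. The receptor genes Ccr1 and Gpr183 were lower among 7 measured, and the lysosomal membrane gene Cd63 among 13. Lpl was higher and Spp1 and Fabp5 lower among 10 genes of lipid-associated macrophages, and Tnf was higher and Hbegf, Vegfa, Osm and Spp1 lower among 10 secreted factors linked to growth and wasting. In the lists of lysozymes (Lyz1 and Lyz2 higher), Fc receptors (Fcrls higher), and scavenger receptors and iron genes (Cd163 higher in each), no other gene was apart. The same held for transcription factors (Irf8 lower), cell cycle (Ube2c lower) and immediate early genes (Egr1 lower). Of 7 measured complement genes 3 had enough counts for a call, and none of these was apart. Without each gene's highest cell, Tnf, Irf8, Hbegf and Spp1 were no longer apart.

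Between Lyz1-high and Lyz1-zero members the 14 measured dendritic genes had a median log2 ratio of −1.30. Only 6 of them had the 30 counts a call needs, and none of these was apart. Of 11 macrophage genes Cd14, the lipopolysaccharide co-receptor gene, was lower at 156 and 662 CPM (log2 ratio −2.09, −2.76 to −1.48), and the list median was 0.44. Of 7 measured resident perivascular genes F13a1 was higher, but the list median was −0.41, with 3 positive and 4 negative ratios. Of the 18 genes in that list 9 had no count in Lyz1-high and 8 none in Lyz1-zero members. Cd209c, Clec10a and Clec4n were lower among 13 lectin genes, and Cish, a cytokine-induced inhibitor gene, and Ccl17 were lower while Retnla was higher among 9 interleukin-4 response genes. Ctsd, the lysosomal protease cathepsin D, was higher at 338 and 66.2 CPM (2.35, 1.62 to 3.13). Trf, transferrin, was lower at 77.9 and 458 CPM, and the tetraspanin gene Cd9 at 71.4 and 331 CPM. Without each gene's highest cell, Cd14, Clec10a, Clec4n and Dnajb1 were no longer apart. Of 12 lysosome, 7 interferon, 5 scavenger receptor, 5 Fc receptor and 5 complement genes measured, 8, 3, 2, 5 and 2 had the 30 counts a call needs. None of these was apart. None of the 3 measured cell cycle genes had enough counts for a call.

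Markers of other cell types were also read in the members, and their part in the differences was not tested. Alveolar macrophage markers had the highest sum of these lists, at 1704 CPM in muscle members against 861 CPM in lung members. Ear2 alone stood at 1208 and 216 CPM. That list also holds Mrc1, the mannose receptor gene, which the macrophage and lectin lists hold too. Its sum is therefore not particular to alveolar macrophages. In muscle and lung members the other sums were 170 and 4.47 CPM for muscle fibres, 1.72 and 82.0 CPM for lung epithelium, 117 and 790 CPM for migratory dendritic cells, 63.7 and 204 CPM for plasmacytoid dendritic cells and 18.9 and 52.2 CPM for B cells. T and NK cell markers, of which the rule left out Cd3e, summed to 3.44 and 23.8 CPM. Endothelial markers summed to 25.8 and 49.2 CPM, fibroblast markers to 208 and 349 CPM, and mast cell and basophil markers had no count in either set. Of the alveolar macrophage markers Car4, Ear1, Marco and Krt79 had no count in muscle members, nor did the neutrophil markers S100a9, Retnlg, Cxcr2 and Lcn2, and erythroid markers had none in lung members. In Lyz1-high and Lyz1-zero members the muscle fibre markers summed to 117 and 202 CPM.

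**Figure D5:**
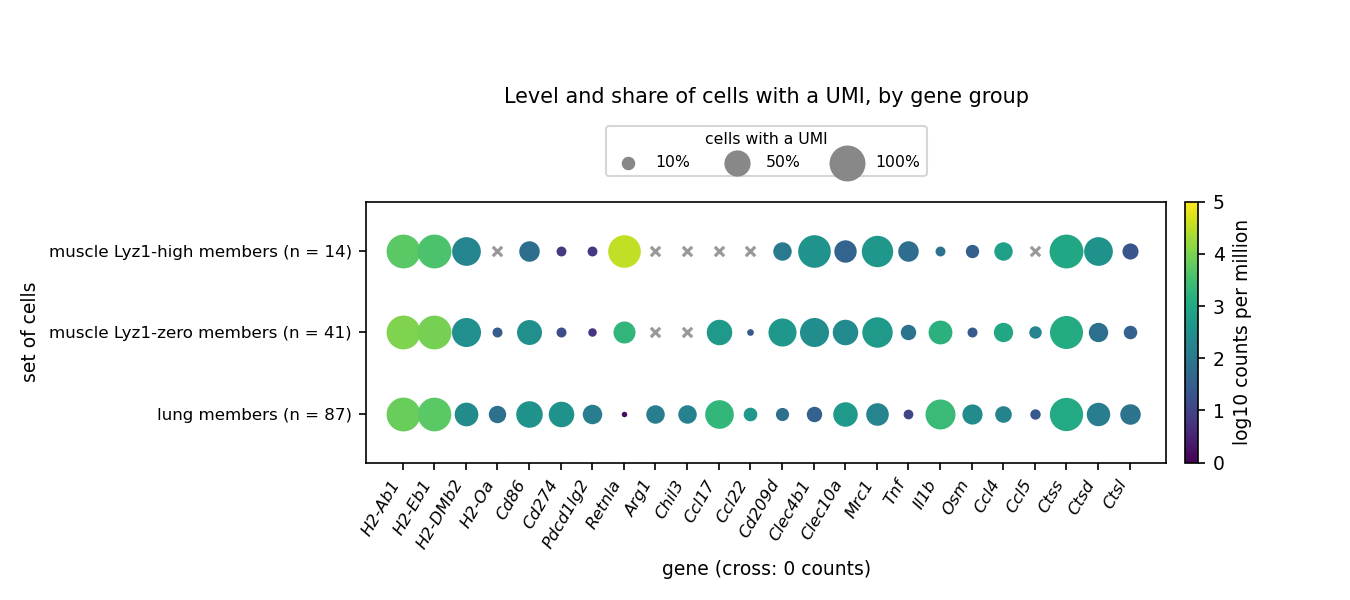
Dots for 24 genes in Lyz1-high, Lyz1-zero and lung members, with the size giving the share of cells with a UMI, the colour log10 CPM and a cross for sets without a count. Retnla stands at 33423 CPM in Lyz1-high, 1860 CPM in Lyz1-zero and 1.49 CPM in lung members, and Ccl17 had no count in Lyz1-high members.

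Removing the Lyz1-rich cells from the comparison left part of the tissue difference in place. Lyz1-zero muscle members over lung members had 34 of 3540 genes higher (0.96%) and 117 lower (3.31%). Of these, 30 higher and 105 lower genes were also called with all muscle members, which are 88.2% and 89.7% of the Lyz1-zero calls and 42.9% and 70.9% of the calls with all members. Both comparisons share the lung cells, and the 41 Lyz1-zero cells are among the 61 muscle members, with 347374 of their 581026 UMIs. A high overlap was therefore built in. Retnla still stood at 1860 CPM, with 1 count in lung (log2 ratio 10.29, 7.80 to 15.59), Cd163 at 115 and 4.47 CPM (4.69, 3.04 to 7.02) and Fcrls at 184 and 2.98 CPM (5.95, 4.04 to 9.03). F13a1 stood at 31.7 and 22.4 CPM, with an interval that includes no difference (0.50, −0.76 to 1.72), and Lyz2 stood at 4157 and 1556 CPM (1.42, 1.30 to 1.53). Ccl17 was not called lower than in lung here, although it was with all muscle members. Wnt11 was higher than in lung, at 253 and 29.8 CPM (3.09, 2.37 to 3.87).

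The members were set beside C1q-high macrophages and type 1 dendritic cells of the same library. Of 3675 genes 22 were higher in muscle members than in muscle C1q-high macrophages (0.599%) and 133 lower (3.62%), and of 7592 genes 92 were higher (1.21%) and 266 lower (3.5%) in lung. Muscle members and C1q-high macrophages held Retnla at 10462 and 15504 CPM, Lyz1 at 1633 and 1470 CPM, Fcrls at 305 and 347 CPM and Cd163 at 108 and 148 CPM. Members held less of Apoe, apolipoprotein E, at 58.5 and 18569 CPM (log2 ratio −8.31, −8.84 to −7.83), and of the platelet factor gene Pf4, at 3.44 and 768 CPM. The efferocytosis receptor gene Mertk stood at 6.88 and 119 CPM and Ms4a7 was at least 62.6-fold lower in members. Members held more Ccl17, at 408 CPM against 18 counts in the macrophages (log2 ratio 4.03, 3.34 to 4.81), and more Cd209c, at 236 and 13.9 CPM. Of 15 measured conventional dendritic genes 14 had a positive ratio in muscle (median 1.16), none apart by size, and all 16 macrophage genes a negative one (−1.69). In lung 17 of 18 dendritic genes were positive (2.96), 7 of them apart, and all 16 macrophage genes negative (−2.46). Both sets were chosen by gene counts, so this is a description. In lung the members lay further from the C1q-high cells in Mrc1, the mannose receptor gene, at 177 and 1314 CPM (−2.89, −3.17 to −2.63), in Cd163 at 4.47 and 161 CPM and in F13a1 at 22.4 and 656 CPM. Other named genes of that lung comparison were Klrd1, Cd209c, Adam23, Itgae, Aff3 and Cyp7b1, each higher in members, and Ccl8, Saa3, Apoe, Pf4, Ccl7 and Ccl12, each lower.

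Against type 1 dendritic cells 80 of 2706 genes were higher (2.96%) and 29 lower (1.07%) in muscle members, and 89 of 4257 were higher (2.09%) and 128 lower (3.01%) in lung members. H2-Aa was within the fold of 4, at 10216 and 11275 CPM in muscle and 6557 and 6848 CPM in lung. Flt3 stood at 15.5 and 188 CPM in muscle and at 22.4 and 275 CPM in lung (log2 ratio −3.62, −4.49 to −2.87). Irf8, which type 1 dendritic cells need, stood at 20.7 and 908 CPM in muscle, and the integrin gene Itgae was at 0 in muscle members and at 551 CPM in type 1 cells. In lung the type 1 genes Tlr3, Clnk, Plpp1, Gcsam and Rtl8c had no count in members, and Cadm1 stood at 5.96 and 330 CPM. Members held more S100a4, a calcium-binding protein gene, at 469 and 20.5 CPM (4.51, 3.77 to 5.37), Tmem176a at 274 and 13.7 CPM, and Cd209c, Cd209d and Cd7, none of which had a count in lung type 1 cells. Of 17 measured conventional dendritic genes 5 had a positive ratio of members over type 1 cells in muscle (median −0.27), as did 11 of 12 macrophage genes (1.25). In lung 8 of 19 dendritic genes (−0.96) and 12 of 15 macrophage genes (0.45) were positive. Only 12 muscle cells were type 1 dendritic cells. Cells that met the gate for monocytes numbered 11 in muscle and 171 in lung, of which 9 and 160 were left without likely doublets. Against their name, the named genes lower in members than in these cells included neutrophil granule genes in muscle and collagen genes in lung. Members were apart from them in 81 genes higher (2.98%) and 57 lower (2.1%) in muscle, and 104 higher (1.83%) and 285 lower (5.02%) in lung, which are not described further.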

How the data were processed

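Droplet libraries of CD45+ cells (10x 5′ v2 kit, per the labels) were made from gastrocnemius and lung, 1 library each. The files deposited hold unnormalized UMI counts for each gene in each barcode. The authors made them with Cell Ranger 7.0.1 and build GRCm39, per the submitters' processing notes. Neither the gene annotation nor the cell calling settings are given in the sources used here. Coordinates and sequences are of GRCm38 and were used for sequences only.

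A barcode was kept with 200 or more genes and no more than 10% of its UMIs in the 37 mitochondrial genes. The libraries held 14056163 UMIs in muscle and 34751225 in lung. Counts were summed over the cells of a set and divided by the set's total (CPM). The sets came from counts of the same cells and each tissue had 1 library, so no test was made. Exact Poisson intervals (CPM), exact conditional binomial intervals (ratios) and Clopper-Pearson intervals (shares) at 95% cover counting error only. Sets with no count were given a floor of 3 counts. A ratio of at least 4 with an interval excluding 2 and 30 counts in the higher set was called apart by size. A list gene was measured with 10 counts over both sets. Muscle cells with at least 3 counts of Pecam1 and Cdh5 and no Ptprc, and lung cells with at least 2 of Cd79a and no Cd3e, served as cells that should lack myeloid genes. Likely doublets (the top 0.8% per 1000 barcodes by simulated doublets among 45 neighbours) were counted and retained, and their removal was an alternative. Shares were also computed on cells thinned to 1000 UMIs.

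Named genes were the markers and rule genes, the 12 per direction whose interval lay farthest from no difference (6 for neighbouring sets), leaving out mitochondrial, ribosomal and unnamed genes and markers of other cell types, listed genes apart by size, the 4 genes of each list with most counts, and the 5 genes most like Lyz1. Genes outside that rule were named after their values were seen. The members, the 36 lists and the alternatives were chosen with earlier results of these data known. In simulated counts for muscle over lung, 95.0% of 8-fold and 54.8% of 4-fold changes with enough counts were recovered, and 0 unchanged genes were called. The simulated sums held counting error only and no variation between cells. They therefore give no rate of wrong calls for these data. Alternatives changed the cell limits, the gate, the scaling, the weighting of cells, the depth and the size rule. Python 3.11.15, numpy 2.4.6, scipy 1.17.1, pandas 2.3.3, scikit-learn 1.9.0 and matplotlib 3.10.9 were used. Muscle RNA sequencing under antibodies, named in the series design, was not analysed here.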

Additional observations from a re-analysis of the deposited data

How the results depend on the processing

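Of 144 summary values under an alternative 117 stayed within a limit (1.5 times the reported value for counts, its own interval for shares and ratios) and 27 moved further, as did 343 of the values for single genes, while 2402 did not and 1 turned round. With at least 4 counts of Cd209a and Mgl2 there were 48 lung members (87 by the rule), 6 genes were higher in Lyz1-high members (19) and Ccl2 turned to a log2 ratio of −0.63. The cause was not tested. Thinned to 1000 UMIs, muscle over lung gave 8 genes higher and 18 lower (70 and 148), Lyz1-high over Lyz1-zero 4 and 2 (19 and 64), and Lyz1-zero over lung 4 and 9 (34 and 117), with fewer genes tested. Thinned shares were 1.64% for Flt3 and 18.0% for Cd163 or F13a1 in muscle members, 3.49% and 3.49% in lung members, 42.9% for Cd163 or F13a1 in Lyz1-high, and 2.44% and 12.2% in Lyz1-zero members. With 10 counts in the higher set there were 118 higher and 231 lower genes for muscle over lung, 51 higher for Lyz1-high and 77 higher for Lyz1-zero over lung. With a ratio of 2 and an interval excluding 1 there were 221 and 545, 69 and 197, and 129 and 567 in the same order of comparisons. Without each gene's highest cell, an alternative chosen after seeing the data, 10 genes were higher in Lyz1-high members. Median-ratio scaling gave 159 genes higher in muscle members than in the monocyte gate (81). Lyz1-high members were 14 cells, and differences in genes with few counts were not detectable at this depth. No paired analysis was possible because each tissue had 1 library.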
